A study of Mus musculus with 65 samples.

Results

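The ErbB receptors and the EGF family ligands were followed across all groups of a study of mouse neural stem cells. The genes were the receptors Egfr, Erbb2, Erbb3 and Erbb4, the ligands Areg, Ereg, Hbegf, Tgfa and Nrg1, and the receptor inhibitor Errfi1. They were chosen by name as the rows of the deposited count table whose Ensembl identifiers carry these symbols, which gave 1 row for each of the 10 genes among 31057 features. That rule used no measured value, but the members, and the lists of pathway genes below, were chosen with earlier results of these data known. The study grew primary neural stem cells from the subventricular zone, a stem cell niche of the adult mouse brain, and sequenced their messenger RNA in 65 libraries of 15 groups.

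All mice carried iOSKM, a genotype in which the reprogramming factors Oct4, Sox2, Klf4 and Myc can be switched on with doxycycline, so the untreated cells carried it too. The cells came from 5 young mice of 3 to 4 months and 4 old mice of 25 months, of both sexes. Neural stem cell medium (NSC medium) held EGF and bFGF, while differentiation medium lacked both factors and was given 18 h after plating. Untreated libraries of each age were made at 18 h in NSC medium and after 6, 18 and 48 h of differentiation. Doxycycline, at 2 µg per ml, was given to young cells at 18 h in NSC medium only. Old cells received doxycycline at 6, 18 and 48 h in NSC medium and at 6, 18 and 48 h of differentiation. There was thus no untreated group at 6 or 48 h in NSC medium, and the comparisons of media at those times used doxycycline libraries of old mice. The labels do not state from when the hours in NSC medium were counted, so equal hours in both media may be different times after plating. Every mouse of an age gave a library to every group of that age, so the groups of an age share their animals.

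ErbB receptors are tyrosine kinases of the cell surface that pair with each other once a ligand binds, and then signal through Ras and ERK and through PI3 kinase. Egfr binds EGF, transforming growth factor alpha (Tgfa), amphiregulin (Areg), epiregulin (Ereg) and heparin-binding EGF-like growth factor (Hbegf). Erbb3 and Erbb4 bind neuregulins such as Nrg1, Erbb4 also binds some EGF family ligands, Erbb2 has no known ligand and serves as a partner, and Erbb3 has a weak kinase. Most ligands are made as membrane proteins and released by proteases of the ADAM family. Errfi1, also called Mig6, binds the active kinase of Egfr and inhibits it. In the subventricular zone Egfr is known as a marker of activated stem cells and their proliferating progeny, and EGF is the usual mitogen of neural stem cell culture.

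Upstream sequences are shown for 5 of these genes because they moved in opposite directions between the media: Areg fell in differentiation medium at every time compared, Errfi1 and Erbb4 rose, and Egfr and Tgfa changed direction with time. Each is the 250 bases before an annotated start, from RefSeq, build GRCm38.p6, written 5′ to 3′ along the gene's strand, with matches to the searched motifs in capitals. The motifs were the AP-1 site TGANTCA, the cyclic AMP response element TGACGTCA, the GC box GGGCGG, the TATA box TATAAA, the E-box CAGCTG and the RBPJ core TGGGAA, each searched on both strands. The Areg sequence lies at chr5:91139349-91139598 on the plus strand, the Errfi1 sequence of the downstream of its 2 starts at chr4:150854820-150855069 on the plus strand and the Egfr sequence at chr11:16751953-16752202 on the plus strand. The Tgfa sequence lies at chr6:86194972-86195221 on the plus strand and the Erbb4 sequence at chr1:69108060-69108309 on the minus strand.
Areg: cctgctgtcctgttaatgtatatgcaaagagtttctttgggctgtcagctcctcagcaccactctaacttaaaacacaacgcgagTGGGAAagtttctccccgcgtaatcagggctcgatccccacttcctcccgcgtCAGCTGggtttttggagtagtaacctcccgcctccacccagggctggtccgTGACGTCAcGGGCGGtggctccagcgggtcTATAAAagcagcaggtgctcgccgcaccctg
Errfi1 downstream start: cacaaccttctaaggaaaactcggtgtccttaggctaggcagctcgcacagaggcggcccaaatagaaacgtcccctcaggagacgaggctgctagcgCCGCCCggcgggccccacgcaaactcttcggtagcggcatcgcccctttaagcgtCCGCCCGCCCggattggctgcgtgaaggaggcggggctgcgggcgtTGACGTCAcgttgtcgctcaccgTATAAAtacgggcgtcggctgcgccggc
Egfr: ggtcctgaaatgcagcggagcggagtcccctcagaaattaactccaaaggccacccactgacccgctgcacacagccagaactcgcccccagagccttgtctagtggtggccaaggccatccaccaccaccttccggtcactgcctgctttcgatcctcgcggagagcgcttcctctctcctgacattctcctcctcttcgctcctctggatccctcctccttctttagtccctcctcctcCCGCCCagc
Tgfa: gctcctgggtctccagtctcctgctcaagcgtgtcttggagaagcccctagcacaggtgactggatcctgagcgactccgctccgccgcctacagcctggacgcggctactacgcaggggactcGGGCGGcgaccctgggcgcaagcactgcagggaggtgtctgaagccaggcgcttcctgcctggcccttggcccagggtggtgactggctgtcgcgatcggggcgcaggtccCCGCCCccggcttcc
Erbb4: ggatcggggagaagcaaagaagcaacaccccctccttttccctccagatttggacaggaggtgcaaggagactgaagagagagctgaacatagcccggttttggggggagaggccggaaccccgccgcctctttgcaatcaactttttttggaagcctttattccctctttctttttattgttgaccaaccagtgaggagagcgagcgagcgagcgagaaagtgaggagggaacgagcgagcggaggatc
Areg held 1 match each to the cyclic AMP response element, the GC box, the TATA box, the E-box and the RBPJ core. The downstream Errfi1 start also held 1 cyclic AMP response element and 1 TATA box, with 3 GC boxes of which neighbouring matches overlap. The window of the upstream Errfi1 start, chr4:150853546-150853795, held none of the 6 motifs. Among 32851 promoter windows of this length, 1.55% held the cyclic AMP response element, 12.4% the TATA box, 32.7% the GC box, 13.0% the E-box, 21.6% the RBPJ core and 6.75% the AP-1 site. Egfr held 1 GC box, Tgfa held 2, and the Erbb4 window held none of the 6 motifs. These matches describe letters, and no binding was measured.

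The counting strand is not given in the sources used here, so reads of overlapping genes cannot be told apart from those of the member. Annotated genes overlap Egfr, Erbb2, Ereg, Tgfa, Nrg1 and Errfi1 on the opposite strand and Erbb3 and Erbb4 on the same strand, and none overlaps Areg or Hbegf. The libraries held 56.5 to 116.8 M counts each, with M for mega. The unit CPM is a gene's count per M counts of the scaled library total, and differences are given as log2 fold changes with their standard error (SE). A gene was called at an adjusted p under 0.05 from edgeR's quasi-likelihood test, with Benjamini-Hochberg adjustment over all genes tested. Oct4, the induced factor read through Pou5f1, was higher with doxycycline in every animal of all 5 matched comparisons, by 1.81 to 5.25 times, at 0.269 to 0.791 CPM with the drug. Klf4 differed by 0.834 to 1.13 times. Sox2, a neural stem cell marker and itself a factor of the cassette, lay between 224 and 358 CPM over the group means, and Nes, another stem cell marker, between 92.7 and 1321 CPM. Of 6 microglial markers C1qa, Cx3cr1 and Aif1 reached group means of at most 0.0199, 0.0206 and 0.0434 CPM and Tmem119 0.281 CPM. The others were detected in every library, P2ry12 with group means of 0.188 to 2.80 CPM and Csf1r with 4.62 to 10.7 CPM. The 6 summed to 11 to 11.4 CPM in untreated young NSC medium and 5.38 to 6.21 CPM after 18 h of differentiation. Markers of the oligodendrocyte lineage were abundant and differed between the media. Summed over 6 precursor markers they reached 2444 to 2962 CPM in untreated young NSC medium at 18 h and 3213 to 3549 CPM after 18 h of differentiation. Summed over 5 oligodendrocyte markers, the levels were 131 to 143 CPM and 699 to 861 CPM in the same groups. The precursor markers did not share a course. Olig2 had its highest group mean in untreated old NSC medium (963 CPM) and its lowest in untreated young cells at 48 h of differentiation (525 CPM). Gpr17 ran from 0.570 CPM at 6 h in NSC medium to 3112 CPM at 48 h of differentiation, both in doxycycline old cells. These are pooled cells, so fewer cells of a type and less RNA per cell cannot be told apart in any result that follows, and the part of the cell mixture in them was not tested.

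Per kilobase of the deposited gene length, Egfr was the most abundant receptor transcript in all 65 libraries. It made up 76.1 to 86.5% of the summed receptor level in the NSC medium groups and 67.2 to 92.5% in the differentiation groups. Erbb2, the partner receptor, came next in all 26 NSC medium libraries. Erbb4 exceeded Erbb2 in 26 of 39 differentiation libraries, and the exceptions were the 13 libraries at 6 h. Erbb3 was the lowest receptor in every group, at 0.127 to 1.5 CPM. Among the ligands Hbegf led in all 26 NSC medium libraries, with 71.9 to 92.9% of the summed ligand level. In differentiation medium Tgfa exceeded Hbegf per kilobase in 34 of 39 libraries, with 34.7 to 59.7% of the sum against 30.9 to 49.2% for Hbegf.

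The summed levels moved in opposite directions between media at 18 h. In untreated old cells the receptor sum was 35.4 ± 2.56 CPM per kilobase in NSC medium and 70.5 ± 5.17 after differentiation, while the ligand sum was 44.9 ± 9.18 and 20.3 ± 1.15 (mean ± SD, n = 4 and 4). In untreated young cells the receptor sums were 39.1 ± 2.46 and 80.1 ± 2.49 and the ligand sums 44.6 ± 6.85 and 17.9 ± 0.855 (n = 5 and 5). In neither age did the libraries of the media overlap in either sum. At 48 h in doxycycline old cells the order of the media was reversed for both sums. The receptor sum was 52.6 ± 3.03 in NSC medium and 45.6 ± 5.41 in differentiation, and the libraries overlapped. The ligand sum was 22.4 ± 1.91 and 28.0 ± 0.961, and they did not overlap (mean ± SD, n = 4 and 4). The ligand sum was highest in doxycycline old cells at 6 h in NSC medium, at 187 to 313 CPM per kilobase, and lowest at 6 h of differentiation, at 7.21 to 11.3 over its 3 groups.

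**Figure D1:**
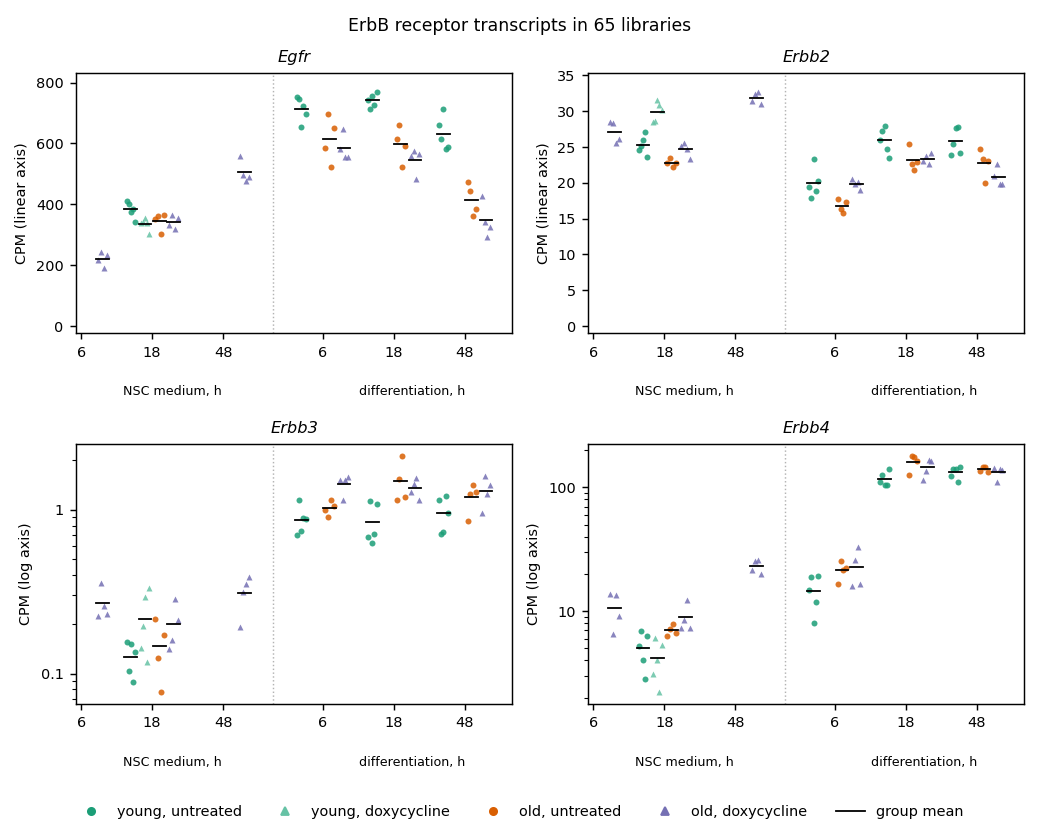
Levels of the 4 ErbB receptor transcripts in each of the 65 libraries (points, CPM; Egfr and Erbb2 on linear axes from 0, Erbb3 and Erbb4 on log axes) by medium and hours, with group means as black bars. Egfr lies at 342 to 411 CPM in untreated young NSC medium and at 713 to 769 after 18 h of differentiation, and Erbb4 climbs from 2.82 to 6.92 CPM to 104 to 140.3 CPM between the same groups.

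All 10 members passed the filter on low counts in the comparisons of media, and most differed at every time. At 18 h, 5 of 10 were higher and 4 lower in differentiation medium in untreated young cells, in untreated old cells and in doxycycline old cells alike. Of all genes tested 42.3% were called higher and 40.3% lower in young cells, 41.5% and 40.5% in old cells, and 41.4% and 40.0% in doxycycline old cells, or 82.6%, 82.0% and 81.5% either way. In doxycycline old cells 4 members were higher and 6 lower at 6 h, where 41.4% and 39.3% of genes were (80.7% either way). At 48 h the counts were again 4 and 6, where 39.8% and 37.1% of genes were called (76.9% either way). The members' shares are near the background, so what follows describes sizes and directions.

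Along untreated differentiation the counts were similar at both ages. From NSC medium at 18 h to 6 h of differentiation 5 members were higher and 3 lower in young cells (38.4% and 36.5% of all genes, 74.9% either way). In old cells 6 were higher and 4 lower (38.2% and 37.4%, 75.5% either way). From 6 to 18 h, where Ereg fell under the filter and 9 members were tested, 4 were higher and 2 lower in young cells (34.0% and 32.4%, 66.5% either way) and 5 and 2 in old cells (34.1% and 33.6%, 67.7% either way). From 18 to 48 h 2 of 9 were higher and 4 lower at both ages, against 27.7% and 29.2% of genes in young cells (56.9% either way) and 28.0% and 28.5% in old cells (56.5% either way). In NSC medium with doxycycline 1 member was higher and 6 lower from 6 to 18 h (30.6% and 30.7%, 61.3% either way), and 3 were higher and 2 lower from 18 to 48 h (26.0% and 26.3%, 52.3% either way). These libraries come from the same mice at each step.

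Egfr (ENSMUSG00000020122, chromosome 11, 16752203 to 16918158, mm10), the EGF receptor, was at 411, 402, 376, 386 and 342 CPM in the 5 untreated young libraries in NSC medium at 18 h. After 18 h of differentiation the same mice gave 744, 713, 756, 725 and 769 CPM. The groups did not overlap and every mouse was higher in differentiation medium, with a log2 fold change of 1.0 (SE 0.05, adjusted p = 1.25e-10, edgeR). In untreated old cells Egfr rose from 352, 360.0, 303 and 364 CPM to 615, 660.4, 523 and 590.1 CPM, a log2 fold change of 0.84 (SE 0.08, adjusted p = 7.66e-07, edgeR). The gain was in place at 6 h of differentiation, at 714 ± 39.8 CPM in young and 614 ± 76.1 CPM in old cells (mean ± SD, n = 5 and 4). Between 6 and 18 h no difference was called at either age, with log2 fold changes of 0.05 (SE 0.05) and -0.04 (SE 0.10).

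The Egfr difference between media then turned over. In doxycycline old cells Egfr in NSC medium rose from 221 ± 22.1 CPM at 6 h to 343 ± 20.9 at 18 h and 505 ± 36.1 at 48 h, by log2 fold changes of 0.65 (SE 0.07) and 0.58 (SE 0.06) for the successive steps. In differentiation medium it stood at 584 ± 43.5, 546 ± 42.1 and 347 ± 57.2 CPM at the same hours. At 6 h Egfr was 2.64 times as abundant in differentiation medium, and at 48 h NSC medium held 557, 497, 476 and 489 CPM against 428, 341, 294 and 327 CPM. The groups did not overlap at either time. The log2 differences were 1.44 (SE 0.08) at 6 h and -0.50 (SE 0.11) at 48 h, with adjusted p-values of 7.27e-09 and 0.00213 (edgeR). The test of the change itself, an interaction of medium with time, gave -1.91 (SE 0.14, adjusted p = 1.65e-09, edgeR); 73.4% of all genes were called in that interaction, 3 members in each direction.

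Erbb2 (chromosome 11, 98412470 to 98437716), the receptor without a ligand of its own, differed little between media at 18 h. At 18 h no difference was called in any of the 3 comparisons, at 25.3 and 25.9 CPM in young, 22.8 and 23.2 in old and 24.8 and 23.4 in doxycycline old cells for NSC medium and differentiation. At 6 h in doxycycline old cells Erbb2 was lower in differentiation medium, at 20.6, 19.8, 20.1 and 19.0 CPM against 28.5, 28.4, 25.5 and 26.1 (log2 fold change -0.41, SE 0.06, adjusted p = 3.26e-05, edgeR). At 48 h it was lower again, at 20.8 ± 1.30 against 31.9 ± 0.814 CPM (log2 fold change -0.57, SE 0.05). In untreated cells Erbb2 differed at 6 h of differentiation from NSC medium at 18 h by -0.31 (SE 0.07) in young and -0.42 (SE 0.05) in old cells on the log2 scale, and rose from 6 to 18 h, by 0.38 (SE 0.07) in young and 0.47 (SE 0.06) in old cells on the log2 scale.

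Erbb4 (chromosome 1, 68032186 to 69108059, minus strand), a neuregulin receptor, had the steepest rise of the receptors. The untreated young libraries held 5.26, 6.92, 4.06, 2.82 and 6.33 CPM in NSC medium and 111, 127, 104, 104 and 140.3 CPM after 18 h of differentiation, which is 23.1 times as much on the means. In old cells 6.26 to 7.90 CPM became 125 to 181 CPM, 23.2 times as much. The log2 fold changes were 4.59 (SE 0.23) and 4.58 (SE 0.14), with adjusted p-values of 3.07e-08 and 3.73e-09 (edgeR). Most of the rise came after 6 h. At 6 h of differentiation it lay at 14.6 ± 4.75 CPM in young and 21.5 ± 3.67 CPM in old cells, and the step from 6 to 18 h added 3.01 (SE 0.24) and 2.91 (SE 0.18) on the log2 scale. From 18 to 48 h no difference was called, at 117 and 132 CPM in young and 162 and 141 CPM in old cells, while the fit with the animal as block called the young step (log2 fold change 0.16, adjusted p = 0.0177, edgeR). In NSC medium of doxycycline old cells Erbb4 rose from 8.87 ± 2.39 at 18 h to 23.1 ± 2.85 CPM at 48 h (log2 fold change 1.4, SE 0.18). The difference at 6 h between media in doxycycline old cells, 22.9 against 10.7 CPM, lost its call when animals were entered as blocks (log2 fold change 1.13, adjusted p = 0.0549, edgeR) and without old mouse 2 (0.89, adjusted p = 0.078).

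Erbb3 (chromosome 10, 128567523 to 128589652, minus strand), the neuregulin receptor with a weak kinase, stayed at a low level. It was called higher in differentiation medium in all 5 comparisons, with log2 fold changes between 2.10 (SE 0.24) and 3.38 (SE 0.32). The old untreated libraries held 0.214, 0.125, 0.0775 and 0.171 CPM in NSC medium and 1.14, 1.53, 2.14 and 1.20 CPM at 18 h of differentiation, and the groups did not overlap.

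**Figure D2:**
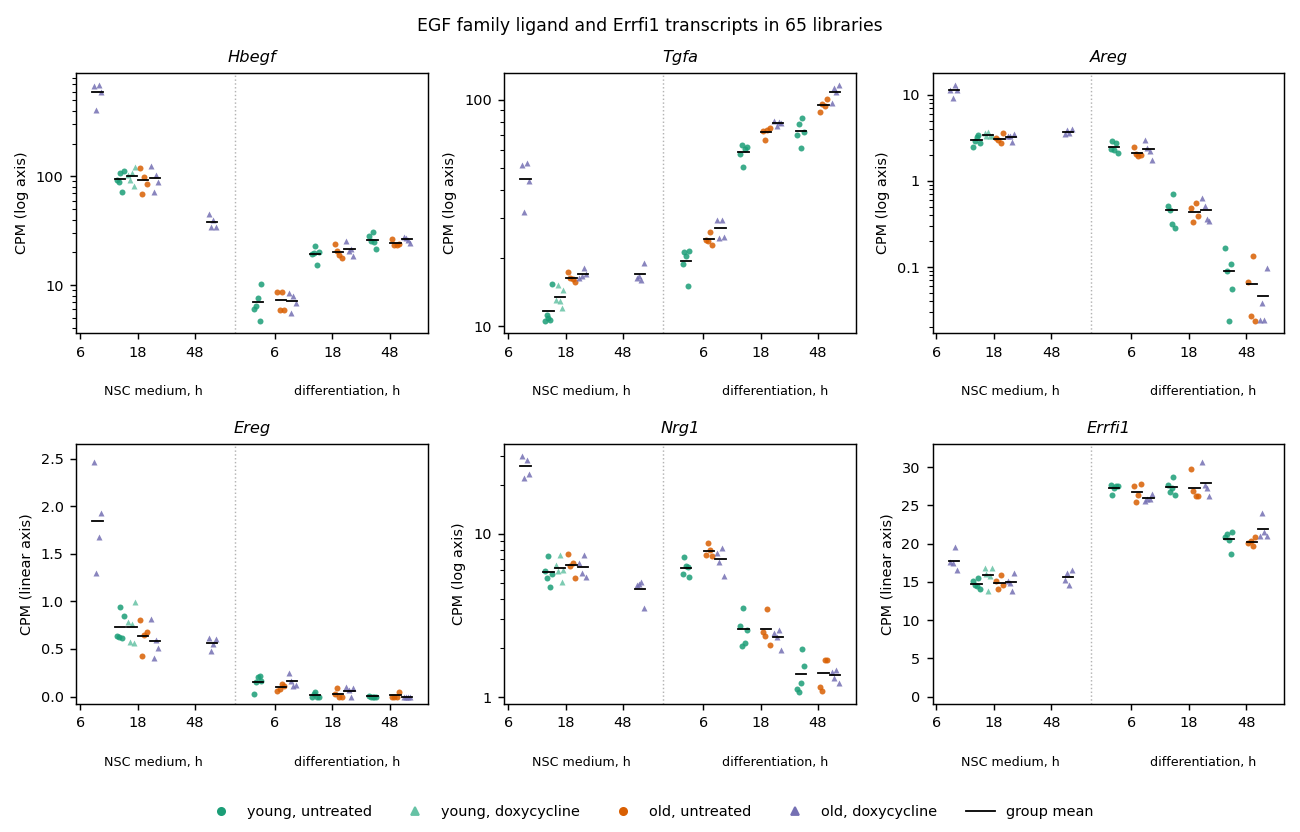
Levels of the 5 ligand transcripts and of Errfi1 in each of the 65 libraries (points, CPM; Ereg and Errfi1 on linear axes, the others on log axes) by medium and hours, with group means as black bars. Hbegf is highest in doxycycline old cells at 6 h in NSC medium (409 to 691 CPM), and Tgfa climbs through differentiation to 61.4 to 116 CPM at 48 h.

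Among the ligands Hbegf (chromosome 18, 36504927 to 36515805, minus strand), whose membrane form is shed by ADAM proteases, reached the highest level. In untreated young cells the 5 libraries held 93.4, 88.0, 107, 71.3 and 111 CPM in NSC medium and 19.2, 19.8, 22.7, 15.2 and 20.3 CPM after 18 h of differentiation. The NSC medium mean was 4.83 times the differentiation mean in young and 4.55 times in old cells, with log2 fold changes of -2.22 (SE 0.14, adjusted p = 5.88e-08) and -2.14 (SE 0.19, adjusted p = 1.61e-05, edgeR). At 6 h in doxycycline old cells the gap was 82.6 times, from 682, 409, 691 and 598 CPM in NSC medium to 8.50, 5.60, 7.91 and 6.80 CPM. By 48 h it had narrowed to 38.2 ± 5.18 against 26.3 ± 1.52 CPM (log2 fold change -0.49, SE 0.09). The interaction of medium with time was 5.86 (SE 0.25, adjusted p = 4.65e-11, edgeR). Both media contributed: Hbegf fell in NSC medium from 6 to 18 h by 2.60 (SE 0.23) and from 18 to 48 h by 1.33 (SE 0.18) on the log2 scale. In untreated differentiation it rose from 6 to 18 h by 1.47 (SE 0.19) in young and 1.48 (SE 0.16) in old cells. The same mice often sat at the ends of the range: old mouse 1 was the highest old library in 9 of 10 groups and young mouse 4 the lowest young library in 4 of 5.

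Tgfa (chromosome 6, 86195223 to 86275719), which codes for transforming growth factor alpha, moved the other way at 18 h. The untreated young libraries held 10.5, 11.2, 10.8, 10.6 and 15.3 CPM in NSC medium and 57.7, 62.8, 50.2, 60.5 and 61.9 CPM after differentiation. In old cells 17.4, 16.3, 16.2 and 15.6 CPM became 72.4, 66.4, 73.3 and 75.3 CPM. The libraries of the media did not overlap at either age, with log2 fold changes of 2.38 (SE 0.11, adjusted p = 5.86e-10) in young and 2.18 (SE 0.05, adjusted p = 4.71e-13, edgeR) in old cells. At 6 h in doxycycline old cells the direction was opposite, at 51.2, 31.8, 52.3 and 43.9 CPM in NSC medium against 29.3, 24.5, 29.4 and 24.8 CPM (log2 fold change -0.69, SE 0.16, adjusted p = 0.00359, edgeR). In NSC medium of the same mice Tgfa was lower later, from 44.8 ± 9.45 CPM at 6 h to 17.0 ± 0.719 CPM at 18 h. At 48 h Tgfa reached 108 ± 8.52 CPM in differentiation and 17.0 ± 1.35 CPM in NSC medium, 6.37 times as much. Through untreated differentiation Tgfa rose at each step, from 19.4 to 58.6 and 72.8 CPM in young and from 24.1 to 71.9 and 94.6 CPM in old cells at 6, 18 and 48 h. At 6 h it was already 1.66 times its level in untreated NSC medium at 18 h in young and 1.47 times in old cells. The interaction of medium with time was 3.43 (SE 0.19, adjusted p = 2.30e-10, edgeR).

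Areg (91139599 to 91148432) and Ereg (91074622 to 91093646), genes on chromosome 5 that code for amphiregulin and epiregulin, were both lower in differentiation medium in all 5 comparisons. Areg lay at 2.51 to 3.38 CPM in untreated young NSC medium at 18 h and at 0.281 to 0.705 CPM after 18 h of differentiation (log2 fold change -2.62, SE 0.20). In old cells it fell by 2.79 (SE 0.17) on the same scale, to 0.442 ± 0.0958 CPM. At 6 h of differentiation, when Hbegf was already at its lowest, Areg held 2.49 CPM in young cells, against 2.96 in NSC medium, a difference that was not called (adjusted p = 0.113, edgeR), and 2.11 against 3.11 CPM in old cells, which was. By 48 h the young libraries held 0.0235 to 0.167 CPM and the old ones 0.0239 to 0.136. Ereg was at 1.30 to 2.46 CPM at 6 h in NSC medium and at 0.410 to 0.998 at 18 h. It was at 0 in 3 of 5 young and 2 of 4 old untreated libraries after 18 h of differentiation. At 48 h all 4 doxycycline differentiation libraries held no Ereg count, against 0.564 CPM in NSC medium, which makes it at least 16.3-fold lower when 3 counts per library are taken as the floor.

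Nrg1 (chromosome 8, 31814551 to 32884029, minus strand), a neuregulin that binds Erbb3 and Erbb4, was lower in differentiation medium in all 5 comparisons. At 18 h it fell from 5.81 to 2.61 CPM in young and from 6.47 to 2.60 CPM in old cells (log2 fold changes -1.11, SE 0.15, and -1.28, SE 0.16). In NSC medium at 6 h doxycycline old cells held 30.1, 21.8, 28.4 and 23.1 CPM, and no NSC medium library at 18 or 48 h exceeded 7.48 CPM. At 6 h of untreated differentiation Nrg1 was not below NSC medium at 18 h, at 6.17 CPM in young and 7.86 CPM in old cells. From 18 h it fell further, to 1.39 CPM in young and 1.41 CPM in old cells at 48 h. Its receptor Erbb4 rose up to 18 h of differentiation, with no difference called from 18 to 48 h in the fit without blocks.

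Errfi1 (chromosome 4, 150853919 to 150868892), the intracellular inhibitor of Egfr, rose in differentiation medium in all 5 comparisons. The young libraries held 14.0 to 15.5 CPM in NSC medium and 26.4 to 28.7 CPM at 18 h of differentiation, a log2 fold change of 0.94 (SE 0.05, adjusted p = 7.24e-11, edgeR). Old cells gave 0.91 (SE 0.06). It had risen by 6 h, to 27.2 and 26.8 CPM, and it fell between 18 and 48 h by 0.43 (SE 0.05) in young and 0.44 (SE 0.05) in old cells on the log2 scale.

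**Figure D3:**
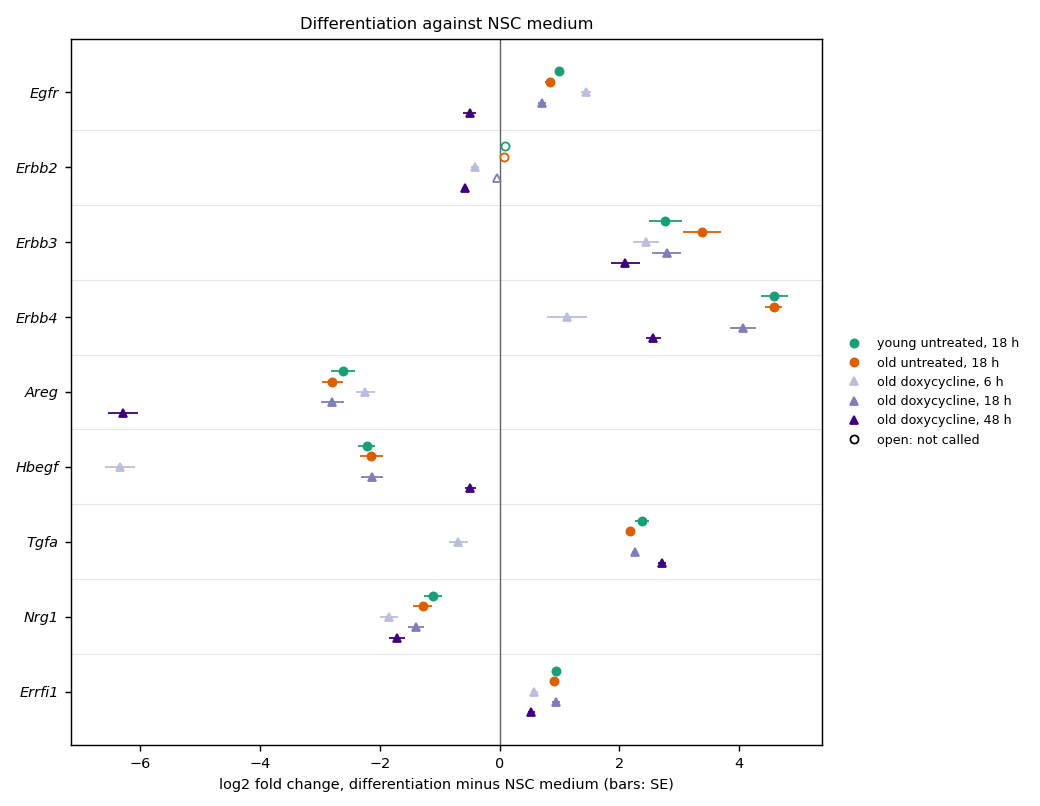
Log2 fold changes of 9 genes between differentiation and NSC medium (points; bars are SE; open points were not called) in untreated young and old cells at 18 h and in doxycycline old cells at 6, 18 and 48 h; Ereg is left out because its groups at 48 h include one with no counts. Hbegf moves from -6.33 at 6 h to -0.49 at 48 h, Tgfa from -0.69 to 2.71 and Egfr from 1.44 to -0.50.

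Whether age altered the difference between media at 18 h was tested as an interaction. No member was called there by edgeR or by DESeq2, and 0.818% of all genes were called by edgeR. An unadjusted p under 0.05 was reached by 0 members and by 2768 of 17726 genes. For Egfr the difference between ages in that effect was -0.15 (SE 0.09) and for Tgfa -0.18 (SE 0.13) on the log2 scale.

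Between ages few members were called. Old against young, 1 of 10 members was called higher and 0 lower in untreated NSC medium, where 3.09% of genes were higher and 2.86% lower (5.95% either way). With doxycycline in NSC medium 1 was higher and 1 lower, against 3.71% and 4.54% of genes (8.24% either way). At 6 h of differentiation edgeR called 0 members, where 1.43% of genes were called either way. There 4 members had an unadjusted p under 0.05, where 2395 of 17192 genes did, and DESeq2 called 3 members (Tgfa, Nrg1 and Erbb2). At 18 h 1 of 9 tested was higher and 1 lower (2.85% and 2.34% of genes, 5.19% either way), and at 48 h 1 of 8 was higher and 1 lower (5.63% and 5.02%, 10.6% either way). Ereg was under the filter at both of these times and Areg at 48 h. These comparisons share animals, so they are not independent of each other.

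Tgfa was the member called higher in old cells in 4 of these 5 comparisons. In untreated NSC medium the old libraries held 15.6 to 17.4 CPM and the young ones 10.5 to 15.3 (log2 fold change 0.48, SE 0.10, adjusted p = 0.0234, edgeR). With doxycycline the values were 16.3 to 18.0 against 12 to 15.2 CPM (0.33, SE 0.07, adjusted p = 0.0165). At 18 h of differentiation old cells held 66.4 to 75.3 and young cells 50.2 to 62.8 CPM (0.31, SE 0.06, adjusted p = 0.00879). At 48 h they held 88.5 to 101 and 61.4 to 83.3 CPM (0.39, SE 0.08, adjusted p = 0.0169). At 6 h of differentiation 22.7 to 26.1 CPM against 15 to 21.4 CPM did not pass (0.31, SE 0.09, adjusted p = 0.137). The old and young libraries did not overlap in any of the 5 comparisons. The call in untreated NSC medium held in 2 of 9 fits that each left out 1 mouse, where log2 fold changes were 0.44 to 0.60 and adjusted p-values 8.04e-04 to 0.0667. The calls with doxycycline and at 48 h each held in 7 of 9 such fits, losing it without old mouse 3 or 4 (highest adjusted p = 0.0573) and without old mouse 2 or 3 (highest adjusted p = 0.0552). The call at 18 h held in all 9, but a single fit over all 65 libraries gave an adjusted p of 0.0593 (edgeR).

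Egfr was lower in old cells late in differentiation. At 18 h old libraries held 523 to 660.4 CPM and young ones 713 to 769 (log2 fold change -0.29, SE 0.06, adjusted p = 0.0133, edgeR). At 48 h the old libraries held 474, 444, 361 and 383 CPM and the young ones 659, 614, 714, 583 and 587, a log2 fold change of -0.59 (SE 0.08, adjusted p = 0.00407). Neither pair of groups overlapped, and both calls held whichever mouse was left out. Old mouse 3 had the lowest Egfr of the old libraries in all 10 groups. In NSC medium and at 6 h no difference was called, at -0.16 (SE 0.06) and -0.22 (SE 0.08). Whether the age difference grew from 6 to 48 h was tested as an interaction added after these levels were seen. It gave -0.38 (SE 0.12), with an unadjusted p of 0.00648 and an adjusted p of 0.209 (edgeR), and was not called; 0.285% of all genes were. Summed oligodendrocyte precursor markers also differed between the ages at 48 h, but not at 18 h. At 18 h of differentiation their sums overlapped, at 3207 to 3643 CPM in old and 3213 to 3549 CPM in young untreated libraries. Their summed level at 48 h was 4476 to 4906 CPM in old and 3425 to 3790.2 CPM in young libraries, and the oligodendrocyte markers summed to 1576 to 2609.8 and 828 to 2019 CPM. The 9 neural stem cell and astrocyte markers summed to 8533 to 9552 CPM in old and 9711 to 10559 CPM in young libraries. That sum joins markers that went both ways. Gfap (668 CPM) and Aqp4 (669 CPM) had their highest group mean of all in the old group. Slc1a3 (3961 CPM) and Gja1 (1239.8 CPM) had theirs in the young group. The part of these markers in the Egfr difference was not tested.

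Erbb2 was lower in old cells with doxycycline in NSC medium, at 23.4 to 25.6 CPM against 28.5 to 31.6 (log2 fold change -0.28, SE 0.05, adjusted p = 0.00546, edgeR). Its other 4 estimates ran from -0.25 (SE 0.08) to -0.15 (SE 0.06) and none passed. Erbb4 was estimated higher in old cells by 0.45 (SE 0.22), 1.09 (SE 0.30), 0.56 (SE 0.25), 0.49 (SE 0.14) and 0.10 (SE 0.08) over the 5 comparisons, none of them called; DESeq2 called the second and the fourth. Hbegf and Errfi1 gave values between -0.09 (SE 0.09) and 0.08 (SE 0.12).

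**Figure D4:**
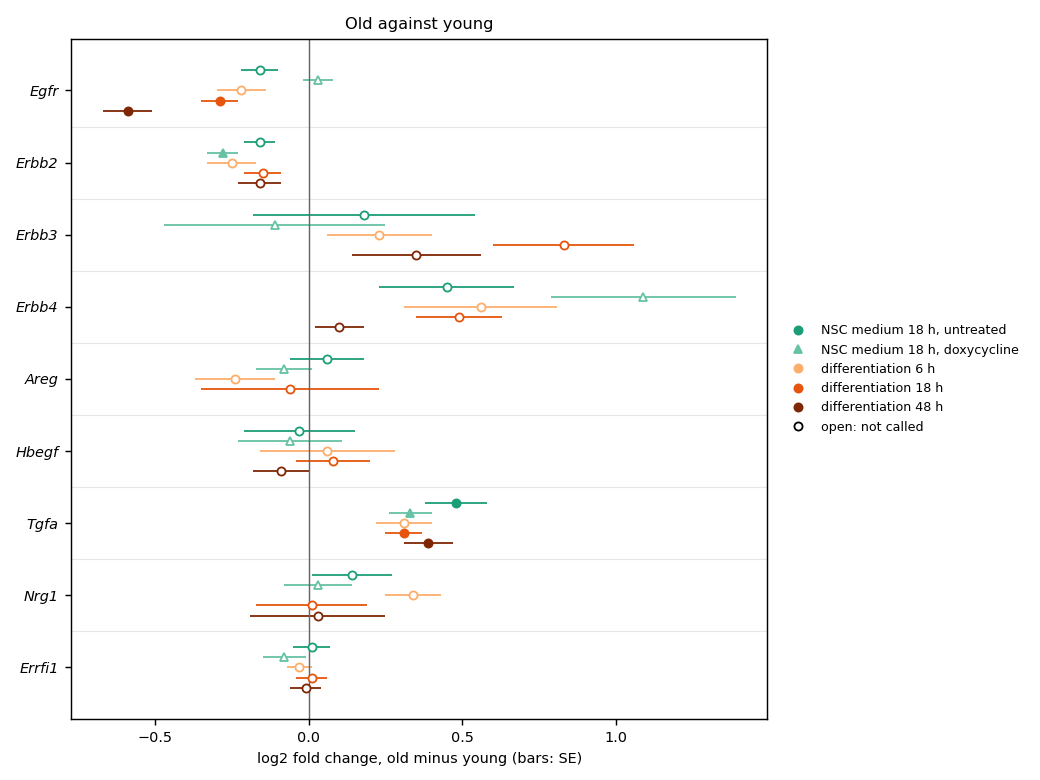
Log2 fold changes of 9 genes between old and young cells (points; bars are SE; filled points were called, open points were not) in NSC medium at 18 h without and with doxycycline and at 6, 18 and 48 h of untreated differentiation; Ereg is left out as near 0 in differentiation, and Areg was not tested at 48 h. Tgfa lies between 0.31 and 0.48 in all 5 comparisons, and Egfr reaches -0.59 at 48 h of differentiation.

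How many members differed with doxycycline, and which ones, depended on the fit. In edgeR's quasi-likelihood test without animal blocks 0 members were called in each of the 5 comparisons, where 0.0361%, 0.0180%, 0.0294%, 0.0118% and 0.0296% of all genes were called. Unadjusted p-values under 0.05 were reached by 4, 1, 3, 1 and 2 members in the same order. Of all genes tested 2403 of 16621, 1466 of 16652, 1507 of 17033, 1137 of 16986 and 1492 of 16889 reached them. DESeq2 called 2 members (Egfr and Erbb2) in young NSC medium, 1 (Erbb2) at 6 h of differentiation and 0 in the other 3. Because each mouse gave both libraries, a fit with the animal as block was also made. It called 5 members in young NSC medium, 3 in old NSC medium, 1 at 6 h, 0 at 18 h and 2 at 48 h of differentiation. With that block 13.6%, 11.2%, 3.67%, 0.883% and 4.15% of all genes were called.

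The differences called with the block were small. In young NSC medium Egfr was at 338, 340.2, 355, 338 and 302 CPM with doxycycline against 411, 402, 376, 386 and 342 without it, lower in all 5 mice (blocked log2 fold change -0.20, SE 0.03, adjusted p = 4.81e-04, edgeR). Erbb2 was at 28.5, 28.6, 31.6, 30.9 and 30.2 CPM against 24.6, 25.1, 26.0, 27.1 and 23.6, higher in all 5 (0.25, SE 0.04, adjusted p = 4.89e-04). Erbb4 (-0.30), Tgfa (0.21) and Hbegf (0.11) were the others called there. In old NSC medium the block called Erbb4 (0.33), Erbb2 (0.13) and Hbegf (0.08), at 6 h of differentiation Erbb2 (0.24, adjusted p = 0.00744), and at 48 h Egfr (-0.28, adjusted p = 0.00167) and Tgfa (0.18, adjusted p = 0.00436). The interaction of age with doxycycline in NSC medium had no called member without the block, where 0 genes were called. DESeq2 called 0 members there, and 1 member had an unadjusted p under 0.05, where 1516 of 17177 genes did. With the block that interaction was called for Egfr (0.20, adjusted p = 0.0183, edgeR) and Erbb4 (0.63, adjusted p = 0.0242, edgeR). No member was called in the interaction of medium with doxycycline in old cells at 18 h, where 0.00566% of genes were. There 0 members had an unadjusted p under 0.05, where 1768 of 17657 genes did, and neither DESeq2 nor the block called any member.

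**Figure D5:**
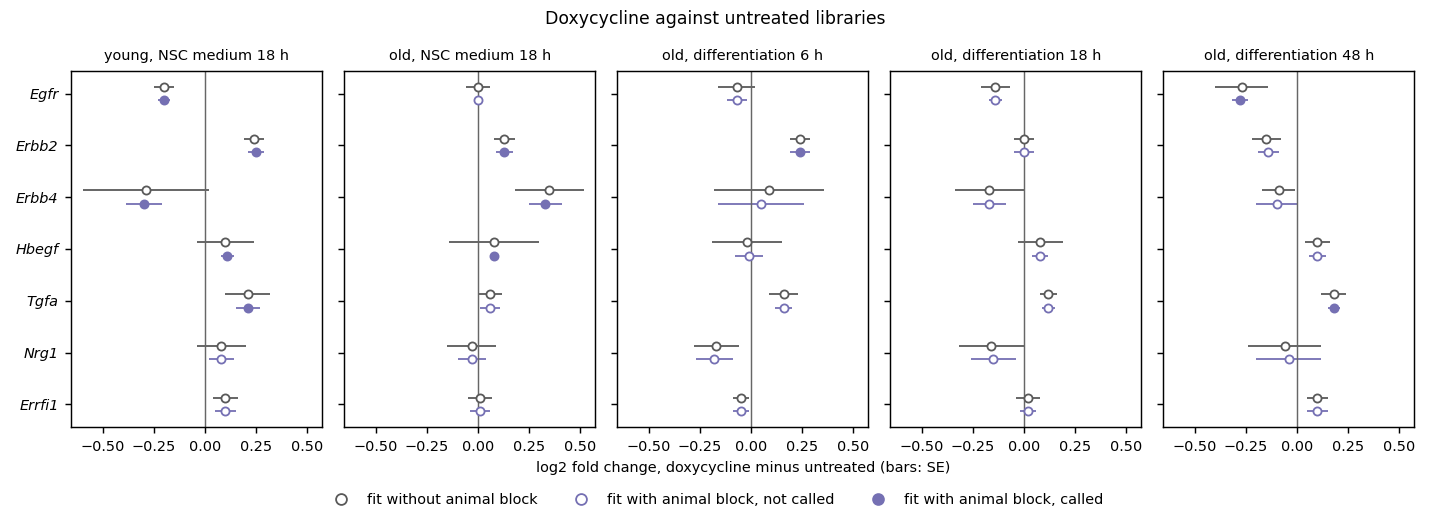
Log2 fold changes of 7 genes between doxycycline and untreated libraries (points; bars are SE) in 5 matched comparisons, from the fit without (grey) and with (violet) the animal as block; filled points were called. The estimates shown of both fits lie close together and at most 0.35 from 0, while the bars of the blocked fit are mostly shorter. Erbb3, Areg and Ereg are not shown. Among these, Erbb3 was 1.70 times as abundant with doxycycline in young NSC medium, at 0.216 against 0.127 CPM, and neither fit called it.

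The other genes of the pathway were described from 5 lists, with the members of largest change among those called and at 5 CPM or more named from each; Egf and Adam17 were named beyond that rule. Of 6 further ErbB ligands (Egf, Btc, Epgn, Nrg2, Nrg3 and Nrg4) 5 were tested between media at 18 h, with 1 higher and 3 lower in each age, where 42.3% and 40.3% of all genes were called in young and 41.5% and 40.5% in old cells. The higher ligand was Egf itself, at 0.983 CPM in young NSC medium and 1.67 CPM after differentiation (log2 fold change 0.82, SE 0.12). Nrg4, a neuregulin that binds Erbb4, fell from 8.97 to 6.94 CPM. Of 10 genes of ligand shedding and trafficking 2 were higher and 6 lower in young cells (median log2 fold change -0.61), and 2 and 7 in old cells, against the same shares of all genes. Adam12 fell from 534 to 54.9 CPM and Cd44, a carrier of Hbegf, from 129 to 32.5 CPM, while Adam9 rose from 212 to 368 CPM. Adam17, the main sheddase of Tgfa and Areg, was not called, at 121 and 111 CPM.

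Of 22 tested receptor adaptors and effectors 9 were higher and 10 lower in young cells at 18 h, with a median log2 fold change of -0.01 against 0.03 over all genes. Gab1, a docking protein below Egfr, rose from 61.0 to 205 CPM, while Shc1, an adaptor, fell from 45.3 to 20.9 CPM. Of 15 receptor attenuators 7 were higher and 7 lower. Of all genes 42.3% were called higher and 40.3% lower in that comparison. Lrig3 rose from 6.92 to 20.6 CPM, Eps15, which acts in receptor endocytosis, from 88.9 to 213 CPM, and Socs5 fell from 68.5 to 23.6 CPM. In old cells the counts were 8 and 9 of 22 and 6 and 7 of 14, where 41.5% and 40.5% of all genes were called.

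The ERK output genes, a list of 21 transcripts that ERK signalling is known to raise, fell more often than they rose. In young cells at 18 h 1 was higher and 17 were lower, with a median log2 fold change of -1.81, where 42.3% and 40.3% of all genes were called higher and lower. In old cells 1 was higher and 18 lower (median -1.88), where 41.5% and 40.5% of all genes were. In doxycycline old cells 1 was higher and 19 lower at each of 6, 18 and 48 h (medians -2.14, -1.66 and -2.73). Of all genes 41.4% and 39.3%, 41.4% and 40.0%, and 39.8% and 37.1% were called higher and lower at these hours. The single gene that was higher, named here after its values were seen, was Fosb in young cells (log2 fold change 0.50) and Etv1 in the others (0.22 to 1.51). Ccnd1, the cyclin of G1 entry, went from 3490 to 53.5 CPM and Spry4, a feedback inhibitor, from 207 to 12.9 CPM in young cells. These genes were lower while the receptor Egfr was higher at 18 h, and they were still lower at 48 h in doxycycline old cells, when Egfr was lower too. By age, the list had 0 higher and 2 lower of 21 in untreated NSC medium, where 3.09% and 2.86% of all genes were called, and 0 and 6 with doxycycline (3.71% and 4.54%). At 6 h of differentiation 0 were called (1.43% of genes either way), at 18 h 2 were higher and 4 lower (2.85% and 2.34%) and at 48 h 0 and 3 (5.63% and 5.02%). Spry2, a feedback inhibitor of receptor signalling, was lower in old cells at 48 h, at 124 against 164 CPM (log2 fold change -0.39, SE 0.06, adjusted p = 0.00407, edgeR). Lrig1, an attenuator of ErbB receptors, was lower in old cells in 4 of the 5 comparisons, with log2 fold changes of -0.27 to -0.21. Grb10, an adaptor that binds receptor tyrosine kinases and is imprinted, was lower in old cells in all 5 comparisons, by log2 fold changes from -1.42 (SE 0.26) to -1.02 (SE 0.21). The adaptor Shc2 was higher in old cells at 6, 18 and 48 h of differentiation, by 0.29 to 0.37. In the interaction of age with medium Egr2, Egr3 and Spry2 of the ERK output list were called, at -0.67, -0.67 and -0.35. With doxycycline 0 genes of the 5 lists were called in any comparison in the fit without blocks, which ignores that each mouse gave both libraries. That fit called only 6, 3, 5, 2 and 5 genes of the whole table, so it says little about the lists. Counts of the lists with the animal as block are not given here.

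Patterns across the 15 group means were compared with those of other genes by Pearson correlation of log2 levels, as a description over groups that share animals and media. Erbb4 was most like Pygo1 (0.989), Slc6a9 (0.988) and Ccdc24 (0.986). Hbegf was most like Dnajc21 (0.994), Surf2 (0.992) and Tma16 (0.989), and Tgfa like Mras (0.981), Hr (0.972) and Atxn1 (0.971). Areg was most like Nup37 (0.987), Nrg1 like Gfra2 (0.981) and Errfi1 like Fam214b (0.981). For Egfr the closest were Ugt1a6b and Ugt1a6a (both 0.964), which belong to a locus of overlapping gene models and are uncertain as separate counts. Erbb2 had no close match, with Npl at 0.827.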

How the data were processed

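Messenger RNA of cultured mouse neural stem cells was sequenced with a stranded kit as paired reads on a NovaSeq X Plus, per the labels' protocols. The authors deposited a table of raw counts per gene, in which values of 2 (75644) outnumber values of 1 (19963). How the mates of a pair were counted is not given in the sources used here, so a count may not be a fragment. Per the submitters' processing notes the tools included STAR 2.7.10b, Trim Galore 0.6.6, Subread, SAMtools, and, in version 1.40.1, DESeq2, with the build mm10. A table of transformed values was not used.

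The 31057 features carry Ensembl identifiers, of which 30934 were named from GENCODE M21. Each comparison was fitted on the libraries of its groups with edgeR 4.0.16 (R 4.3.3), using its robust quasi-likelihood test after TMM scaling and a filterByExpr step set to 10 counts, without a block, since the labels state no model. A log2 fold change is the fitted value, and its SE was taken from the F statistic. There were 23 comparisons of groups and 5 interactions. Levels are CPM computed here from the counts with TMM factors over all 65 libraries, divided by the deposited gene length where given per kilobase. Simulated counts were used to test the fit: 82 of 100 genes changed by 1 on the log2 scale and 98 of 100 changed by 2 were recovered in the young media comparison of 17000 genes. There were 12 false calls. Few genes were changed and the libraries were drawn independently. The simulation therefore does not show how the fit performs where most genes differ and libraries share animals.

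Within an age a replicate number is 1 animal, per the labels. Libraries of the same animal deviated together in all 18 comparisons of groups within an age (lowest correlation of their deviations 0.23, over 11822 genes). Alternatives were DESeq2's size factors, no filter, DESeq2's Wald test (1.42.0), the animal as block and a single fit over all libraries. Others were sex as covariate in the comparisons of ages and leaving out each animal in turn. In the comparisons of ages the block was the replicate number, without young mouse 5. The members and lists were chosen with earlier results of these data known. All members were named in each comparison, and from each list up to 4 called genes with the largest change that averaged 5 CPM or more. Likeness used log2(CPM + 1) of group means, for genes averaging 5 CPM or more whose SD reached 0.5. The depth limits the lowest members: Areg late in differentiation, Ereg through differentiation and Erbb3 in NSC medium. Erbb3 held 50 counts over all untreated old NSC medium libraries, and Ereg 36 over the untreated old libraries at 6 h of differentiation.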

Additional observations from a re-analysis of the deposited data

Results flagged for a closer look

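Single libraries stood apart from the rest of their group in 7 of 150 groups of members' values, and chance flags about 1 in 20 groups. Erbb3 was lowest in 1 doxycycline old library at 6 h of differentiation, at 1.14 CPM. Erbb4 was lowest in 1 doxycycline old library at 48 h of differentiation, at 109.8 CPM. Nrg1 was lowest in 1 doxycycline old library at 48 h in NSC medium, at 3.52 CPM. Hbegf was highest in 1 untreated old library at 48 h of differentiation, at 26.5 CPM. Tgfa was highest in 1 untreated young library in NSC medium, at 15.3 CPM, which came from young mouse 5. Without that mouse the age difference of Tgfa in NSC medium was 0.60 on the log2 scale, against 0.48 with it. Ereg was detected in a single untreated library of each age at 48 h of differentiation, at 0.0479 CPM for the old mouse and 0.0105 CPM for the young.

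In doxycycline old cells the difference between media changed from 6 to 48 h for 6 members, by the interaction of medium with time (edgeR), where 73.4% of all genes were called. The estimates on the log2 scale were -1.91 for Egfr, 1.46 for Erbb4, -4.02 for Areg, 5.86 for Hbegf and 3.43 for Tgfa. For Ereg the estimate was -5.19, which depends on the prior count because the differentiation libraries at 48 h held no count.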

How the results depend on the processing

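No call of a member changed sign under any alternative. Of the members' single results 2836 kept their direction and side of the threshold, 49 gained a call and 25 lost theirs, and 273 counts of called members stayed within 1.5 times while 29 did not; the cause was not tested. In the comparisons between media and between times every count of called members stayed within 1.5 times. Old against young, DESeq2 called 2 members in untreated NSC medium, 3 at 6 h and 4 at 18 h of differentiation, against 1, 0 and 2 in edgeR, and a single fit over all libraries called 1 at 6 h. With a block of replicate numbers 2 were called in untreated NSC medium and 4 at 18 h. Those numbers name different animals at the 2 ages, and these fits left out young mouse 5. Such a block models no pairing, so its counts, which enter the totals above, say nothing about age. With doxycycline, against 0 in edgeR, DESeq2 called 2 in young NSC medium and 1 at 6 h of differentiation, and a single fit called 1 in young NSC medium. With the animal as replicate block the counts were 5 in young and 3 in old NSC medium, 1 at 6 h and 2 at 48 h of differentiation, and 2 in the interaction of age with doxycycline. Beside these and the calls named in the results, the block changed 1 more call within an age, Erbb2 from 6 to 18 h in NSC medium (log2 fold change -0.12, adjusted p = 0.0282). Leaving out 1 animal at a time, the counts ranged from 0 to 2 for age in untreated NSC medium, 1 to 3 with doxycycline, 0 to 1 at 6 h, 2 to 4 at 18 h and 1 to 2 at 48 h of differentiation, and from 0 to 3 for doxycycline in young NSC medium. The counts of 4 at 18 h and 3 with doxycycline arose without old mouse 1 and young mouse 5. Shares of all genes are given above for edgeR without a block and for the animal block with doxycycline. For the other alternatives they are not given here, so these member counts describe the fits and are no result about the members. Among the time courses, the call of Nrg1 between NSC medium and 6 h in old cells was lost in a single fit (0.30, adjusted p = 0.0823), as was that of Hbegf from 18 to 48 h (0.28, adjusted p = 0.205). The interaction of age with time of differentiation was added after seeing the data. Counts under 3 per library limit Ereg and Areg at 48 h, and Ereg also at 18 h of differentiation.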

Other observations

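Through untreated differentiation the ERK output genes did not keep a single course. From NSC medium to 6 h of differentiation 2 of 21 were called higher and 18 lower in young cells, with a median log2 fold change of -2.70, and 2 and 19 in old cells, with a median of -2.85, where 38.4% and 36.5% of all genes were called in young and 38.2% and 37.4% in old cells. From 6 to 18 h 6 were higher and 6 lower in young cells and 8 and 9 in old cells, near the shares of all genes (34.0% and 32.4%, and 34.1% and 33.6%). From 18 to 48 h 3 were higher and 14 lower in young and 3 and 12 in old cells, against 27.7% and 29.2% and 28.0% and 28.5% of all genes. In doxycycline old cells in NSC medium, 8 were higher and 7 lower from 6 to 18 h (30.6% and 30.7% of all genes) and 5 higher and 13 lower from 18 to 48 h (26.0% and 26.3%), the span over which Hbegf fell and Egfr rose.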
